A study of Mus musculus with 6 samples.

Results

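Whole-lung gene expression was compared between 2 groups of 2 mice, 4 of the 6 arrays of the series. The first group was heterozygous for the transgenes SM22-rtTA and TetO7-BMPR2-R899X and had a right ventricular systolic pressure (RVSP, the pressure read in the right side of the heart) close to normal when killed. These 2 mice are called the R899X mice here. The controls were the 2 mice with the SM22-rtTA transactivator alone. Arrays were placed in these groups by their titles, and the other 2 arrays of the series came from R899X mice with high RVSP.

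All of the mice, controls included, were FVB/N, carried SM22-rtTA, received doxycycline for 9 weeks from an age of 4 weeks and were killed at 13 weeks. The series description calls all of them female, although the label of control mouse 1 gives no sex. SM22 is the protein encoded by Tagln, a gene of smooth muscle, and its promoter drives rtTA, which switches on the TetO7 transgene when doxycycline is present. The transgene is thus meant to be active only where that promoter is active, while the endogenous Bmpr2 gene is present in every cell. Heparin was given before death, and the right lung was flushed with PBS, so each array reads RNA of all cell types of 1 lung together. Each array was 1 mouse, and in the sources used here nothing pairs a control with an R899X mouse.

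BMPR2 is the type II receptor of bone morphogenetic proteins (BMPs), secreted growth factors of the TGF-beta superfamily. A bound receptor phosphorylates a type I receptor, which phosphorylates Smad1, Smad5 and Smad8. These enter the nucleus with Smad4 and switch on genes such as the Id family. BMPR2 also has a long cytoplasmic tail, which binds cytoskeletal proteins such as LIM kinase, and R899X ends the protein within that tail. Inherited BMPR2 mutations are the best known genetic cause of pulmonary arterial hypertension, a narrowing of small lung arteries.

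The lung label was borne out by lung markers. Sftpc, surfactant protein C of alveolar type 2 cells, read 40876 and 26212 in the controls and 34648 and 28582 in the R899X mice. Ager, an alveolar type 1 marker, read 33249 and 24227 and 29207 and 27822, and Scgb1a1, the secretoglobin of club cells, read 51443 and 33258 and 42184 and 39066. In each such pair the first number is mouse 1 of the group and the second is mouse 2, and all are intensities on the linear scale of the deposited values. Xist, the RNA of the inactive X chromosome, read 4646 and 7705 in the controls and 5235 and 5834 in the R899X mice on its brightest probe set, and on its 2 other probe sets R899X mouse 1 was the lowest of the 4. Of the Y chromosome, every probe set of Uty, Kdm5d and Eif2s3y stayed at 38.8 or lower on all 4 arrays. Atrial heart muscle genes were also present: Myl7, the atrial myosin light chain, read 4283 and 4289.6 and 5869 and 3894.

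By the number of probe sets at least 2-fold apart, the 4 arrays did not pair off by group. The ratio of the 3' to the 5' probe set of beta-actin, which is higher where RNA or its labelling is shorter, was 1.89 and 1.45 in the controls and 1.64 and 1.31 in the R899X mice. Mouse 1 of each group therefore had the higher beta-actin ratio. The same ratio for Gapdh was 0.97 and 1.03 in the controls and 0.70 and 0.87 in the R899X mice. It was thus lower in both R899X mice than in both controls, and lower in mouse 1 of each group. Its part in the differences between the groups was not tested. Array medians lay between 128 and 140. Between the 2 controls, 1179 of 27022 tested probe sets differed by at least 2-fold, and between the 2 R899X mice 1400 did. Of the 4 pairs made of 1 mouse from each group, R899X mouse 1 differed from control mouse 1 at 1498 and from control mouse 2 at 1159, and R899X mouse 2 differed from control mouse 1 at 1347. Control mouse 2 and R899X mouse 2 were the closest pair, with 414 probe sets past 2-fold. Pairs across groups were thus about as far apart as pairs within groups, with 1 closer exception. The means of the groups differed by that much at 239, a smaller count by construction, since averaging 2 mice lowers the spread. With the beta-actin ratio as a term, limma still passed 0 probe sets after adjustment, and the medians of 9 of 55 gene lists took the other sign. For most lists described by a median, the values without single mice are given beside it.

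**Figure D1:**
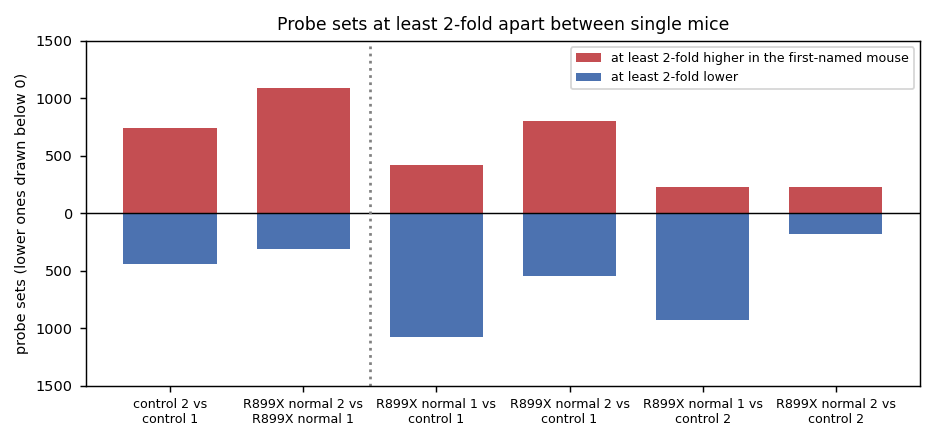
Number of tested probe sets (vertical axis, of 27022) that differ by at least 2-fold on the log2(intensity + 16) scale, for each pair of mice. Higher ones are drawn above 0 and lower ones below 0. The 2 controls differ at 1179 probe sets and the 2 R899X mice at 1400, and 3 of the 4 pairs across groups lie between 1159 and 1498. The pair of R899X mouse 2 and control mouse 2 is lower (414). The count for the group means (239, not drawn) is lower by construction, since these are averages.

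The main question was what the transgene goes with in lungs whose pressure was near normal. No probe set passed limma's moderated test at a Benjamini-Hochberg adjusted p of 0.05 (0 of 27022, 0%), and the smallest adjusted p was 0.987. At an unadjusted p under 0.05 there were 1174 probe sets (4.34%), where 1351 are expected if nothing differs. Under 0.01 there were 161 (0.596%), with 270.2 expected. An ordinary linear model without the moderation also called 0 after adjustment, with 1226 at an unadjusted p under 0.05. In simulated data 13.7% of 2-fold changes passed the adjusted threshold, so 0 passing does not mean 0 changes. With 2 mice a group an exact permutation test cannot go below p = 0.333. No gene below is therefore called changed, and each is described by what its 4 mice read. Differences are R899X minus control means of log2(intensity + 16), given with the standard error of the limma fit (n = 2 mice a group). Since each mouse was a separate animal, that error holds both animal and array spread.

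Both R899X mice read above both controls at 3889 probe sets (14.4%) and below both at 4093 (15.1%). Past 2-fold these became 35 higher (0.130%) and 120 lower (0.444%). Higher probe sets made up 22.6% of those past 2-fold, 35.4% after quantile normalization and 39.2% after centring each array on its median. Among all non-overlapping probe sets they made up 48.7%, 53.3% and 65.2% in the same order. Of the 120 lower ones, R899X mouse 1 was the more extreme of its group at 95, and control mouse 1 the farther control at 94. The genes of these 120 had 100 other tested probe sets, of which 63 pointed the same way, with a median difference of -0.05. For the 35 higher ones, 23 of 32 other probe sets pointed the same way, with a median of 0.08. By their medians, the other probe sets of these genes read close to level.

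Among genes with a symbol, no overlap and an unadjusted p under 0.01, Zdhhc12 had the largest positive difference. It encodes a palmitoyltransferase, and read 68.2 and 109 in the controls against 309.8 and 349 in the R899X mice, a difference of 1.75 ± 0.29. The high-RVSP mice read 59.97 and 72.7, within or below the controls. Nrg1, neuregulin 1, a growth factor ligand of ErbB receptors, read 21.4 and 46.7 in controls and 84.9 and 133 in R899X mice (1.34 ± 0.36). Cyp26b1, the enzyme that breaks down retinoic acid, read 329.8 and 581 in controls and 1111 and 1033 in R899X mice (1.26 ± 0.27). Both R899X mice stood well clear of both controls. Ntn5, a netrin, read 20.7 and 50.1 in controls and 121 and 101 in R899X mice (1.36 ± 0.36). Tspan18, a tetraspanin, read 104 and 92.9 in controls and 329 and 214 in R899X mice (1.30 ± 0.32), and all 3 of its tested probe sets pointed up. Unlike for Zdhhc12, the high-RVSP mice were above both controls for Nrg1 (144 and 121), Cyp26b1 (815 and 660), Ntn5 (109 and 147) and Tspan18 (383 and 219).

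Wnt and BMP signalling each had a member among the 15. Fzd4, a Wnt receptor of endothelial cells, read 115 and 88.3 in controls and 209.9 and 214 in R899X mice (0.96 ± 0.24) on this probe set. Its brightest one read 2023 and 1855 in controls and 2887 and 2150.1 in R899X mice (0.36 ± 0.18), so both showed no overlap, at different sizes. Twsg1, twisted gastrulation, a secreted protein that binds BMPs, read 315 and 216 in controls and 560.0 and 494 in R899X mice (0.97 ± 0.26). A second probe set of it read 724 and 800.0 in controls and 1137 and 1090.4 in R899X mice (0.54 ± 0.22). The brightest read 1989.5 and 2994 in controls and 2114 and 1943 in R899X mice (-0.27 ± 0.21), with groups that overlap. The 3 probe sets of Twsg1 thus disagree in direction.

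Immt, a protein of the inner mitochondrial membrane that shapes cristae, read 252 and 219 in controls and 590.3 and 403 in R899X mice (1.01 ± 0.24). Commd9, a COMM domain protein, read 295 and 265 in controls and 625 and 471 in R899X mice (0.92 ± 0.26). C2cd4b read 96.2 and 88.8 in controls and 244 and 193 in R899X mice (1.11 ± 0.27). The high-RVSP mice read 88.7 and 115 for C2cd4b and 241 and 372 for Commd9, below both R899X mice. Anxa8, an annexin, read 107 and 133 in controls and 252 and 258 in R899X mice (1.004 ± 0.24). Ate1, an arginyltransferase, read 137 and 181 in controls and 332 and 339.8 in R899X mice (1.02 ± 0.23). Brox, a Bro1 domain protein, read 185 and 126 in controls and 345 and 330.3 in R899X mice (1.06 ± 0.26). Mid2, a TRIM family ubiquitin ligase, read 119 and 169.9 in controls and 278 and 399.5 in R899X mice (1.14 ± 0.26). For the last 4 genes, as for all 15, the rule itself asked for no overlap. In these 4 the high-RVSP mice were also above both controls. They read 202 and 236 for Anxa8, 416 and 537 for Ate1, 403 and 554 for Brox and 456 and 403 for Mid2. Ywhaz, a 14-3-3 protein, read 1156 and 1245 in controls and 3899 and 2129 in R899X mice (1.25 ± 0.26), but 5 of its 6 other tested probe sets pointed down. Of the 15 genes, 10 had other tested probe sets, and for 3 at least 1 of these pointed the other way.

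On the lower side, Rabgap1, a GTPase-activating protein, read 483 and 522 in controls and 92.2 and 279 in R899X mice (-1.54 ± 0.42), and the 2 R899X mice differed from each other by more than the 2 controls. Mrps15, a mitochondrial ribosomal protein, read 98.8 and 146 in controls and 50.6 and 18.6 in R899X mice (-1.51 ± 0.40). Each of these had another probe set pointing up. Clec2d, a lectin that binds an inhibitory receptor of natural killer cells, read 2198 and 3739 in controls and 1259.9 and 1369 in R899X mice (-1.12 ± 0.24) on its only tested probe set, with the R899X mice close together. Ifnz, interferon zeta, read 159 and 135 in controls and 44.8 and 52.3 in R899X mice (-1.34 ± 0.28). Ly6i, a Ly6 family surface protein, read 169 and 132 in controls and 49.8 and 67.4 in R899X mice (-1.16 ± 0.28). Each had 1 tested probe set.

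The other 10 of the 15 lower genes have varied roles. Ccnd3, cyclin D3, read 175 and 137 in controls and 47.9 and 81.3 in R899X mice (-1.12 ± 0.31). Lin52, a subunit of the cell cycle repressor DREAM, read 302 and 230.2 in controls and 81.6 and 154 in R899X mice (-1.12 ± 0.32). Map4k4, a kinase upstream of JNK, read 621 and 558 in controls and 189 and 363 in R899X mice (-1.12 ± 0.30), and its 3 other probe sets pointed the same way. Nfib, a transcription factor of lung maturation, read 1960.1 and 1271 in controls and 663 and 960.1 in R899X mice (-0.97 ± 0.27), with 1 of 6 others opposite. Fubp1, a DNA-binding regulator of Myc, read 1292 and 993 in controls and 298 and 727 in R899X mice (-1.25 ± 0.37). Plekha1, a phosphoinositide-binding adaptor, read 383 and 345 in controls and 141 and 217 in R899X mice (-0.99 ± 0.25). Mtm1, a phosphoinositide phosphatase, read 887 and 444 in controls and 232 and 299.6 in R899X mice (-1.20 ± 0.31). Nup54, of the nuclear pore, read 126 and 199.9 in controls and 65.2 and 70.2 in R899X mice (-1.07 ± 0.30). Tatdn1, a putative nuclease, read 242 and 172 in controls and 104 and 60.4 in R899X mice (-1.20 ± 0.32). Prrg1, a membrane protein with a Gla domain, read 515 and 421 in controls and 129.6 and 260.4 in R899X mice (-1.26 ± 0.33). R899X mouse 1 was the lower of its group in 13 of these 15 genes. Other tested probe sets existed for 11 of the 15, and for 7 at least 1 of them pointed up.

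**Figure D2:**
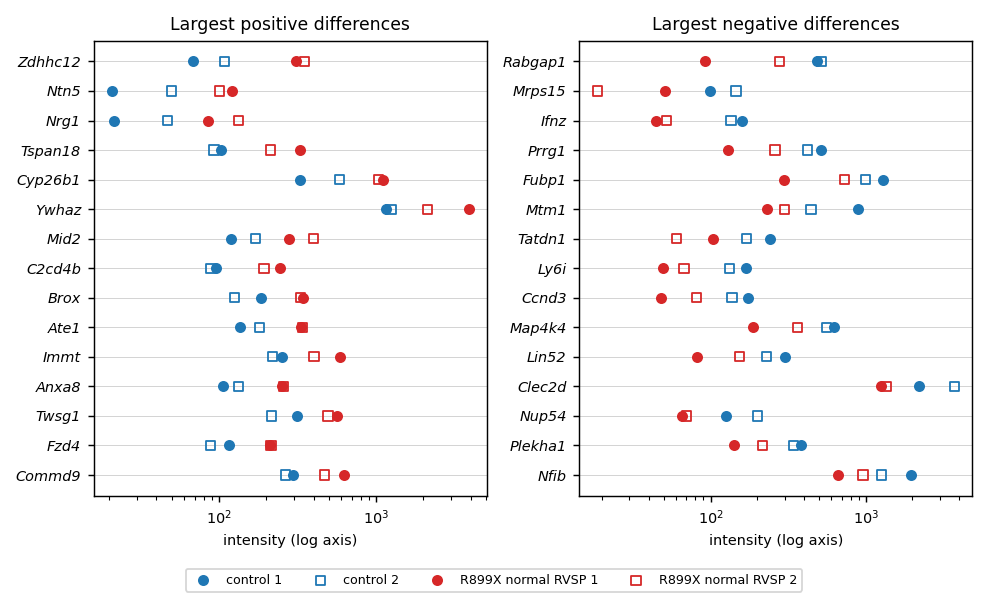
Intensity in each mouse (horizontal log axis) of the 15 genes with the largest positive and the 15 with the largest negative log2 difference among named probe sets without overlap and with an unadjusted p under 0.01. The groups do not overlap because the rule asked for it; the spread within a group is wide for genes such as Rabgap1, where the R899X mice read 92.2 and 279.

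A stricter view asks that every tested probe set of a gene agree. Of 5937 genes with at least 2 tested probe sets, 148 (2.49%) had all of them higher without overlap and 83 (1.40%) all of them lower. Depp1, a gene induced by FOXO factors in fasting and growth factor withdrawal, led the higher ones. It read 2714 and 3838 in controls and 6528 and 5279 in R899X mice on a first probe set (0.86 ± 0.20) and 1299.8 and 1817 against 2729 and 2658 on a second (0.80 ± 0.19). By the rule, both R899X mice were above both controls on each. The high-RVSP mice read 6235 and 5718 on the first, also above both controls. Ankrd1, a cardiac and muscle ankyrin repeat protein that responds to stretch, read 716 and 673 in controls and 1087 and 1107 in R899X mice on a first probe set (0.65 ± 0.17) and 815 and 979.7 against 1310.1 and 1263 on a second (0.52 ± 0.18). On the first of these the high-RVSP mice read 839 and 704, nearer to the controls.

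Qsox1, a sulfhydryl oxidase that makes disulfide bonds, read 574 and 718 in controls and 927 and 1209.8 in R899X mice on a first probe set (0.71 ± 0.20) and 423 and 618 against 786 and 747 on a second (0.57 ± 0.21). Sod3, the extracellular superoxide dismutase of vessel walls, read 2185 and 3025 in controls and 4260.1 and 3129.7 in R899X mice on a first probe set (0.50 ± 0.23) and 1014 and 1252 against 1724 and 1459.7 on a second (0.49 ± 0.21). On the first of these R899X mouse 2 was only just above control mouse 2. Serpinf1, pigment epithelium-derived factor, an inhibitor of vessel growth, read 369.8 and 482 in controls and 658 and 582 in R899X mice on a first probe set (0.53 ± 0.21) and 196 and 219 against 363 and 339 on a second (0.72 ± 0.26). Ckmt1, mitochondrial creatine kinase, read 135 and 152 in controls and 214 and 249.9 in R899X mice on a first probe set (0.64 ± 0.24) and 134 and 71.6 against 208 and 181 on a second (0.87 ± 0.31). Dapp1, a phosphoinositide-binding adaptor of B cells, read 88.1 and 45.3 in controls and 153 and 124 in R899X mice on a first probe set (0.94 ± 0.35) and 238 and 187 against 361 and 306 on a second (0.62 ± 0.23). Ddo, D-aspartate oxidase, read 355 and 302 in controls and 463 and 725 in R899X mice on a first probe set (0.79 ± 0.25) and 80.3 and 74.8 against 126 and 134 on a second (0.64 ± 0.26). Sbspon, a matrix protein, read 84.6 and 92.1 in controls and 123 and 158 in R899X mice on a first probe set (0.58 ± 0.30) and 56.5 and 151 against 193 and 210.4 on a second (0.99 ± 0.39). Amhr2, the receptor of anti-Müllerian hormone and a relative of Bmpr2, closed the 10, at 257 and 186 in controls and 324 and 310.3 in R899X mice on a first probe set (0.50 ± 0.24) and 173 and 120.4 against 185 and 253 on a second (0.53 ± 0.30). Its 2 probe sets, like those of the other 9 genes, agreed in direction with no overlap because the rule asked for it.

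Marf1, a regulator of RNA stability first known from oocyte meiosis, was the only gene among the 10 lower ones with 3 probe sets. The first read 1486 and 1003 in controls and 723 and 651 in R899X mice (-0.82 ± 0.22). The second read 462 and 479 in controls and 232 and 264 in R899X mice (-0.88 ± 0.24). The third read 606 and 403 in controls and 169.7 and 361 in R899X mice (-0.95 ± 0.36). Tet2, an enzyme that oxidises 5-methylcytosine and whose loss is linked to pulmonary hypertension, read 1025 and 604 in controls and 469 and 487 in R899X mice on a first probe set (-0.70 ± 0.26) and 636 and 499 against 225 and 419.9 on a second (-0.84 ± 0.30). The high-RVSP mice read 549 and 469 on the first of these. By the rule, both R899X mice were below both controls in every case, though on the first Tet2 probe set control mouse 1 was well above the other 3 mice.

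Hspb1, the small heat shock protein HSP27, read 11047 and 13038 in controls and 7582 and 9467 in R899X mice on a first probe set (-0.50 ± 0.20) and 7821 and 8488 against 4866 and 6845 on a second (-0.50 ± 0.23). Prc1, a protein of the dividing cell's midzone, read 185 and 131 in controls and 85.9 and 115 in R899X mice on a first probe set (-0.58 ± 0.31) and 148 and 179 against 106 and 125 on a second (-0.44 ± 0.29). Creb5, a CREB family factor, read 232 and 248 in controls and 138 and 208 in R899X mice on a first probe set (-0.46 ± 0.36) and 156 and 107 against 79.2 and 90.7 on a second (-0.53 ± 0.30). Senp8, a protease of the ubiquitin-like protein NEDD8, read 134 and 127 in controls and 80.3 and 95.7 in R899X mice on a first probe set (-0.50 ± 0.29) and 261 and 224 against 104 and 211 on a second (-0.65 ± 0.32). Rcbtb1, Nat8f3, Fam171b and Inava completed the 10, with differences from -0.94 to -0.44 over their 8 probe sets. For Fam171b the high-RVSP mice read 62.7 and 311 on 1 of its 2 probe sets, far apart from each other.

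The receptor carrying the mutation was looked at first within the BMP system. The brightest Bmpr2 probe set read 19768 and 15872 in controls and 18835 and 16849 in R899X mice (0.01 ± 0.17), so the groups overlapped. A second read 436 and 2047 in controls and 657 and 1987 in R899X mice (0.27 ± 0.69), where mouse 1 of each group was low and mouse 2 high. The third read 302 and 408 in controls and 460.1 and 373 in R899X mice (0.23 ± 0.23). Which of these can bind RNA of the transgene was not given in the sources used here, so the transgene itself was not measured apart. Tagln, whose promoter drives rtTA, read 4115 and 4739 in controls and 5622 and 4549 in R899X mice (0.20 ± 0.16) with overlap. Whole-lung RNA cannot tell fewer cells of a type from less RNA per cell, which holds for every gene here.

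Of 82 BMP genes listed, 77 were on the array and 60 were tested, each by its brightest probe set. Of these 60, 28 were higher and 32 lower in the R899X mean, beside 53.7% higher and 46.3% lower of 12557 genes measured the same way. No overlap was seen at 4 higher genes and 5 lower ones, where all genes gave 15% and 12%. None of the 60 had an unadjusted p under 0.05, beside 1.42% of all genes higher and 1.03% lower, and the median difference was -0.04 against 0.02 over all genes. Both shares of genes without overlap lay below those of all genes. More than 1 tested probe set was available at 32 of the 60 genes, and 19 of those 32 had a dimmer one that disagreed with the brightest in direction.

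Among receptors, Acvrl1 (ALK1), the type I receptor of endothelium that is mutated in hereditary telangiectasia, read 3094 and 2947 in controls and 3680.4 and 3899 in R899X mice (0.33 ± 0.15). Both R899X mice were above both controls, but a second probe set read 2295 and 2483 in controls and 2332 and 2541 in R899X mice (0.03 ± 0.15) with overlap. Acvr1 (ALK2), another type I receptor, read 1012 and 1069.7 in controls and 1112 and 1145 in R899X mice (0.12 ± 0.16). Acvr2a, a type II receptor for activins and BMPs, read 2197 and 2169.9 in controls and 1918 and 2026 in R899X mice (-0.15 ± 0.14). Bmpr1a, the most widely used type I partner of Bmpr2, read 2568 and 2284 in controls and 2567 and 2129 in R899X mice (-0.05 ± 0.16). Of its 4 other probe sets, 2 were higher without overlap, with differences of 0.27 ± 0.20 and 0.31 ± 0.20, and 2 overlapped. Eng, the endothelial coreceptor endoglin, read 4986 and 6055 in controls and 7118 and 5489 in R899X mice (0.19 ± 0.18). The brightest probe sets of Bmpr1a and Eng overlapped. Amhr2 was given above. The brightest probe sets of the remaining receptors, Bmpr1b, Acvr2b, Rgma, Rgmb and Hjv, also overlapped, with differences from -0.40 to 0.19. Of the 5 other probe sets of Rgmb, 2 were lower without overlap (-0.63 ± 0.32 and -0.54 ± 0.26). Another probe set of Acvr2b overlapped (-0.66 ± 0.42).

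Of the 8 ligands tested only Gdf10, a distant BMP relative, had no overlap, at 132 and 142 in controls and 189 and 209 in R899X mice (0.49 ± 0.23). Bmp4, which lung mesenchyme and endothelium make, read 2079.5 and 2172 in controls and 2474 and 1884 in R899X mice (0.02 ± 0.18). Bmp6 read 3236 and 3627 in controls and 4657 and 3147 in R899X mice (0.16 ± 0.20). Bmp5 read 1464 and 1707 in controls and 1510.3 and 1699.6 in R899X mice (0.02 ± 0.17). Bmp2 read 627 and 425 in controls and 419.8 and 511 in R899X mice (-0.15 ± 0.27). Gdf2 (BMP9), a ligand of Acvrl1 made mainly in liver, read 103 and 141 in controls and 139 and 129.5 in R899X mice (0.13 ± 0.27). Bmp1, a protease that processes collagen and frees BMPs rather than a true ligand, read 324 and 565 in controls and 431 and 367 in R899X mice (-0.10 ± 0.27). Bmp7 read 138 and 94.2 in controls and 134 and 87.8 in R899X mice (-0.06 ± 0.33). In Bmp4 and Bmp6, R899X mouse 1 was the highest and R899X mouse 2 the lowest of the 4 mice.

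Of the secreted antagonists and modulators, Chrdl1, a chordin-like BMP antagonist, read 1216 and 1069 in controls and 927 and 862 in R899X mice (-0.34 ± 0.16), lower in both R899X mice than in both controls. Its 2 other probe sets disagreed, at 0.21 ± 0.26 with overlap and -0.10 ± 0.22 without. Fst, follistatin, which binds activin, read 998 and 1010.1 in controls and 1019 and 744 in R899X mice (-0.20 ± 0.19). Bambi, a decoy receptor, read 608 and 712 in controls and 671 and 741 in R899X mice (0.10 ± 0.18). Bmper, which binds BMPs at endothelium, read 1074 and 949 in controls and 997 and 883 in R899X mice (-0.10 ± 0.18). Crim1, which tethers BMPs at the cell surface, read 2580.0 and 3779 in controls and 1429 and 4486 in R899X mice (-0.30 ± 0.46), with R899X mouse 1 far below the other 3. The brightest probe sets of the rest, Fstl1, Fstl3, Nbl1, Tll1 and Kcp, overlapped, with differences from -0.06 to 0.19. The other probe set of Fstl1 was higher without overlap (0.27 ± 0.16).

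By their brightest probe sets, 13 of 16 Smad transducers and regulators were lower (46.3% of all genes), 3 of them without overlap (12% of all genes), with a median of -0.14. Smad5, which carries the BMP signal, read 1103 and 1407 in controls and 1065 and 997 in R899X mice (-0.27 ± 0.19). Its 2 other probe sets overlapped, with differences of -0.04 ± 0.49 and -0.12 ± 0.24. Zfyve9 (SARA), an anchor that brings Smads to receptors, read 518 and 447 in controls and 396 and 432 in R899X mice (-0.21 ± 0.19). Zfyve16 (endofin), a related anchor, read 492 and 499 in controls and 469 and 437 in R899X mice (-0.13 ± 0.18). Smad1 read 1911 and 1777 in controls and 1342 and 1792 in R899X mice (-0.25 ± 0.18), where only R899X mouse 1 was below the controls. Smad4, the shared partner, read 5514 and 4632 in controls and 5462 and 4858 in R899X mice (0.03 ± 0.16) on its brightest probe set. A second read 5466 and 5653 in controls and 4533 and 4545 in R899X mice (-0.29 ± 0.14), lower without overlap, and the last overlapped (-0.17 ± 0.22), so the probe sets of Smad4 disagree. Smad6, the inhibitor specific for BMP signals, read 7107 and 5462 in controls and 6056 and 5079 in R899X mice (-0.17 ± 0.18). Smad7, the inhibitor of both branches, read 1187 and 2145 in controls and 1657 and 1658 in R899X mice (0.05 ± 0.26). Pmepa1, a feedback inhibitor induced by TGF-beta, read 969 and 808 in controls and 583 and 856 in R899X mice (-0.32 ± 0.22), with overlap. Its 2 other probe sets were lower without overlap (-0.13 ± 0.20 and -0.25 ± 0.23). The median of the list was -0.12 without control mouse 1, -0.15 without control mouse 2, -0.07 without R899X mouse 1 and -0.08 without R899X mouse 2. Ppm1a, a phosphatase of Smads, overlapped on its brightest probe set (-0.14 ± 0.18). Of its 5 others, 2 were lower without overlap (-0.46 ± 0.20 and -0.32 ± 0.15), 1 was higher without overlap (0.23 ± 0.23) and 2 overlapped. The brightest probe sets of Smad2, Smad3, Smurf1, Smurf2, Ski, Skil and Tob1 overlapped, with differences from -0.20 to 0.05. The other probe set of Smad2 was higher without overlap (0.16 ± 0.20).

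Target genes, which report on BMP signalling, gave 0 of 16 without overlap by their brightest probe sets. Id1, the classic target, read 1170.1 and 2243 in controls and 1915 and 1649.7 in R899X mice (0.13 ± 0.29). Id3 read 1746 and 2760.2 in controls and 2531 and 2360.3 in R899X mice (0.15 ± 0.23). Id2 read 3699.9 and 2516 in controls and 2886 and 3919 in R899X mice (0.14 ± 0.23). Id4 read 494 and 672 in controls and 578 and 698 in R899X mice (0.14 ± 0.22). For Id1 and Id3, control mouse 1 was the lowest and control mouse 2 the highest of the 4 mice, so the R899X mice lay between the controls. Tmem100, a target of ALK1 in lung endothelium, read 10653 and 12136 in controls and 11589 and 10587 in R899X mice (-0.04 ± 0.15). Hey1, a shared Notch and BMP target, read 1882 and 2303 in controls and 3234 and 1779.8 in R899X mice (0.20 ± 0.27). Gata3 had the widest difference of the list, at 379 and 489 in controls and 438 and 172 in R899X mice (-0.61 ± 0.38), through R899X mouse 2 alone. The other targets, Atoh8, Hey2, Msx1, Gata2, Apln and Aplnr, differed by -0.15 to 0.24, all with overlap.

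**Figure D3:**
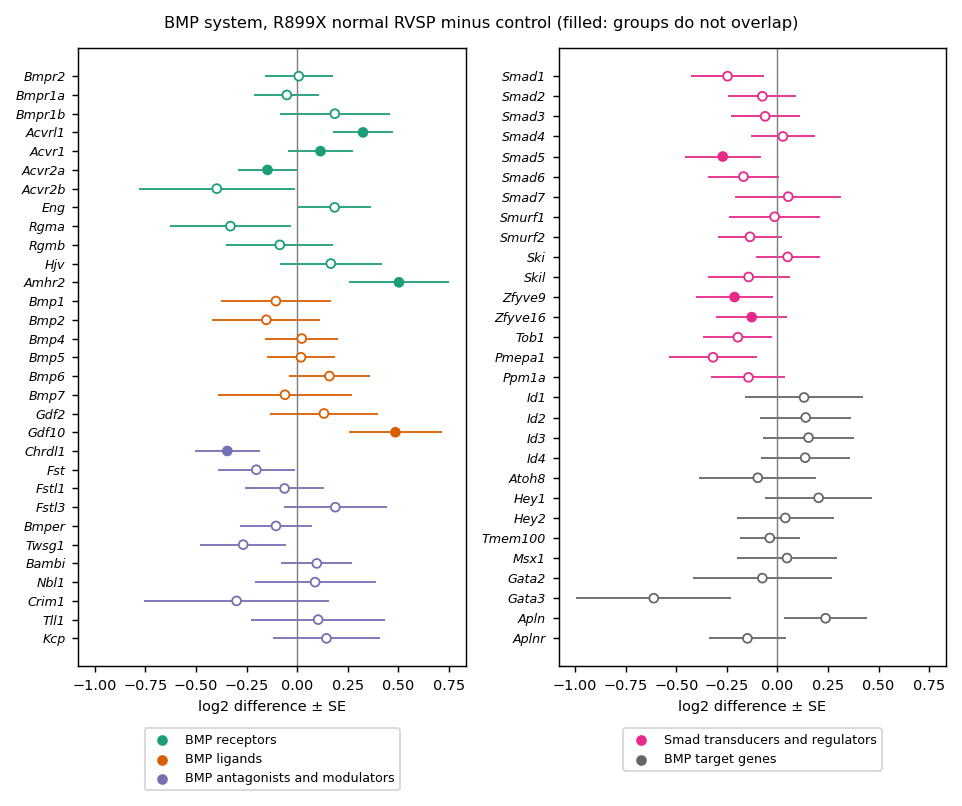
Difference of R899X minus control means of log2(intensity + 16) (horizontal axis) for the tested genes of the BMP system, each by its brightest probe set. Bars are the standard error of the limma fit (n = 2 mice a group). Filled points are genes without overlap between the groups, 4 of them higher and 5 lower in the R899X mice. Among them are Acvrl1 (3680.4 and 3899 against 3094 and 2947) and Chrdl1 (927 and 862 against 1216 and 1069). Another probe set of each of these 2 genes overlaps.

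Genes of contraction are of interest because the transgene is driven by a smooth muscle promoter. In smooth muscle many of them carry a CArG box near their start, the element bound by serum response factor (Srf) together with myocardin. Of 23 promoters found for 19 of the 23 contractile genes tested, 6 (of 5 genes) held a CArG box on either strand in the 250 bases before the start, against 482 (1.47%) of 32851 promoters of the RefSeq table. The stretches of 2 contractile genes and of Srf itself are shown because all 3 genes had no overlap between groups. They are from RefSeq on GRCm38.p6, read 5′ to 3′ on the gene's strand, with the box in capitals. Myl9 lies on the plus strand (chr2:156775253-156775362), Cnn2 on the plus strand (chr10:79988494-79988599) and Srf on the minus strand (chr17:46556165-46556294).
Myl9: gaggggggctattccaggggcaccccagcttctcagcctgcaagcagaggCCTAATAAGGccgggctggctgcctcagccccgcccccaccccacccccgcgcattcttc
Cnn2: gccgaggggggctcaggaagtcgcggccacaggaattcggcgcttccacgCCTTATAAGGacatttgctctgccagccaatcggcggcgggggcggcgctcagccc
Srf: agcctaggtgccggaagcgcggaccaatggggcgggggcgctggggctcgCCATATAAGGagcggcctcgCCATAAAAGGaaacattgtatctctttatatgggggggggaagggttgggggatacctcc

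Of the 23 contractile genes, 18 were higher in the R899X mean and 12 were higher without overlap, while 0 were lower without overlap. Of all genes, 53.7% were higher in the mean, 15% higher without overlap and 12% lower without overlap, and these shares are the background for every list below. The median difference was 0.21, and it was 0.20, 0.28, 0.12 and 0.35 without control mouse 1, control mouse 2, R899X mouse 1 and R899X mouse 2. Myl9, the regulatory light chain of smooth muscle myosin, read 2816 and 3127 in controls and 4822 and 3764 in R899X mice (0.52 ± 0.17). Acta2, smooth muscle alpha-actin, read 6972 and 7698 in controls and 9730.1 and 8824 in R899X mice (0.34 ± 0.14). Actg2, the enteric form, read 447 and 626 in controls and 675 and 723 in R899X mice (0.39 ± 0.21). In all 3 genes both R899X mice were above both controls, and in Myl9 and Acta2 R899X mouse 1 was the highest.

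Cnn1, calponin, which binds actin in smooth muscle, read 421 and 488 in controls and 573 and 589.9 in R899X mice (0.35 ± 0.18). Its more widely expressed relative Cnn2 read 8209 and 7875 in controls and 9810.4 and 8559 in R899X mice (0.19 ± 0.14). Hspb6, a small heat shock protein that relaxes smooth muscle when phosphorylated, read 473 and 443 in controls and 729 and 551 in R899X mice (0.46 ± 0.20). Lmod1, leiomodin 1, which nucleates actin filaments, read 66.0 and 91.7 in controls and 143 and 115 in R899X mice (0.62 ± 0.37). Tpm1, a tropomyosin, read 2868 and 3219 in controls and 4168 and 3296 in R899X mice (0.29 ± 0.18). Tpm2, another tropomyosin, read 2761 and 2668 in controls and 3505 and 3205 in R899X mice (0.30 ± 0.14). Synpo2, an actin-binding protein of muscle, read 454 and 425 in controls and 633 and 480.0 in R899X mice (0.32 ± 0.22). Casq2, the calcium store protein calsequestrin, read 233 and 228 in controls and 300.3 and 241 in R899X mice (0.21 ± 0.28). Srf read 692 and 697 in controls and 706 and 777 in R899X mice (0.09 ± 0.19). These 12 differences ranged from 0.09 to 0.62, and in 9 of the 12 R899X mouse 1 was higher than R899X mouse 2.

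Not all contractile genes shared this. Myh11, the smooth muscle myosin heavy chain, read 823 and 1365 in controls and 1357 and 1201 in R899X mice (0.26 ± 0.24), where control mouse 1 was low and the other 3 mice alike. Myocd, myocardin, read 163 and 199 in controls and 53.9 and 174 in R899X mice (-0.77 ± 0.47), with R899X mouse 1 far below the rest. Intensities summed over the list were 69349 and 68457 in the controls and 79654 and 68949 in the R899X mice. So in the sum only R899X mouse 1 stood clearly above the controls. Cardiac muscle markers were highest in the same mouse: their summed intensity was 39918 and 37174 in the controls and 47362 and 36928 in the R899X mice, with 4 of 23 higher without overlap. Their part in the smooth muscle values was not tested.

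Of 15 smooth muscle and pericyte markers, 10 were higher and 4 were so without overlap, with a median of 0.16 (from 0.01 to 0.31 without each of the 4 mice in turn, lowest without control mouse 1). Besides Acta2 and Cnn1 these were Pdgfrb and Cspg4. Pdgfrb, the PDGF receptor of pericytes, read 6361 and 4729.9 in controls and 6995 and 6797 in R899X mice (0.33 ± 0.17). Cspg4 (NG2), another pericyte marker, read 302 and 428 in controls and 445 and 472 in R899X mice (0.34 ± 0.22). For Cspg4, control mouse 2 came close to R899X mouse 1.

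The cytoplasmic tail that R899X shortens binds cytoskeletal regulators. Of 15 tail partners and cytoskeletal genes, 8 were higher and 2 without overlap, with a median of 0.0046 (from -0.02 to 0.08 without each of the 4 mice in turn). Tctex1d2, a dynein light chain relative, read 559 and 529 in controls and 805 and 725 in R899X mice (0.48 ± 0.18). Limk1, the kinase that the tail binds and that phosphorylates cofilin, read 498 and 432 in controls and 294 and 501 in R899X mice (-0.26 ± 0.26), with R899X mouse 1 low and R899X mouse 2 at the level of control mouse 1. Its substrate Cfl1 overlapped, at 12392 and 10052 in controls and 13952 and 11825 in R899X mice (0.20 ± 0.17). The muscle cofilin Cfl2 did not, at 2446 and 2417 in controls and 2738 and 2638 in R899X mice (0.14 ± 0.14).

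In the TGF-beta and activin list 2 of 15 were higher without overlap and 0 lower, with a median of -0.03 (from -0.02 to 0.08 without each of the 4 mice in turn, and 0.04 after median centring). Ccn2 (CTGF), a matrix protein induced by TGF-beta, read 7735 and 8431 in controls and 10641 and 8726 in R899X mice (0.25 ± 0.16). Tgfb2 read 578 and 451 in controls and 607 and 583 in R899X mice (0.21 ± 0.19). Tgfb1 overlapped, at 1130.0 and 958 in controls and 772 and 979 in R899X mice (-0.25 ± 0.18), since R899X mouse 2 lay between the controls. The high-RVSP mice read 6354 and 7107 for Ccn2.

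Mediators of vessel tone were described by the same counts. Of 17 genes of the endothelin, nitric oxide and prostacyclin pathways, 3 were higher without overlap and 1 lower, beside 15% and 12% of all genes. Pde5a, the phosphodiesterase that sildenafil blocks, read 4875 and 4458 in controls and 4956 and 5711 in R899X mice (0.19 ± 0.16). Ptgis, prostacyclin synthase, read 4779 and 4923 in controls and 5733 and 5076 in R899X mice (0.15 ± 0.15). Calcrl, the receptor for adrenomedullin and CGRP, read 8995 and 7640.2 in controls and 9911 and 11436 in R899X mice (0.36 ± 0.36). Adm, adrenomedullin itself, read 249 and 281 in controls and 215 and 201 in R899X mice (-0.32 ± 0.22). Edn1, endothelin 1, overlapped at 2097 and 2652 in controls and 2277 and 2259.8 in R899X mice (-0.06 ± 0.19). Of 13 channels, Stim1, the sensor of calcium stores, read 472 and 515 in controls and 683 and 576 in R899X mice (0.34 ± 0.18). Kcnma1, the large potassium channel of smooth muscle, read 97.1 and 98.2 in controls and 39.7 and 84.1 in R899X mice (-0.61 ± 0.40). Stim1 was higher and Kcnma1 lower, without overlap. Abcc9, a subunit of ATP-sensitive potassium channels, read 608 and 874 in controls and 943 and 828 in R899X mice (0.27 ± 0.22) with overlap.

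For serotonin 6 of 11 genes on the array were tested. S100a4, a calcium-binding protein placed in this list because serotonin is known to raise it in pulmonary artery smooth muscle, read 755 and 781 in controls and 1517 and 1034 in R899X mice (0.69 ± 0.21). Slc6a4, the serotonin transporter, read 276 and 242 in controls and 202 and 177 in R899X mice (-0.42 ± 0.22). The receptor gene Htr2c read 104 and 116 in controls and 89.3 and 68.3 in R899X mice (-0.42 ± 0.28). S100a4 was higher, and the other 2 lower, in both R899X mice than in both controls.

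Among 15 other risk genes of pulmonary hypertension, 4 were higher and 2 lower without overlap, Tet2 included, beside 15% and 12% of all genes, with a median of 0.03 (from -0.05 to 0.21 without each of the 4 mice in turn, lowest without R899X mouse 1 and highest without control mouse 2). Sox17, an endothelial transcription factor, read 4089 and 4016 in controls and 5415 and 4109 in R899X mice (0.22 ± 0.18), where R899X mouse 2 exceeded control mouse 1 by little. Ggcx, the vitamin K-dependent carboxylase, read 146 and 211 in controls and 218 and 306 in R899X mice (0.52 ± 0.29). Fbln2, fibulin 2, read 127 and 215 in controls and 224 and 224 in R899X mice (0.40 ± 0.28). Klk1, kallikrein, read 185 and 171 in controls and 237 and 207 in R899X mice (0.29 ± 0.27). Atp13a3, a polyamine transporter, read 3596 and 3597 in controls and 3226 and 3362 in R899X mice (-0.13 ± 0.14). Cav1, caveolin 1, overlapped at 24631 and 22162 in controls and 24754 and 22316 in R899X mice (0.01 ± 0.15). Kcnk3, a potassium channel, did so at 254 and 563 in controls and 382 and 324 in R899X mice (-0.11 ± 0.34).

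A truncated receptor is made in the endoplasmic reticulum (ER), so the chaperones that fold proteins there were described next. Their promoters often hold an ER stress response element (ERSE), searched here on both strands as CCAAT, any 9 bases and CCACG. It was found in 9 of 21 promoters of the list and in 37 (0.113%) of 32851 promoters in all. The stretches of Canx and Ero1b are printed because these genes had no overlap, and that of Hspa5 (BiP) because it is the standard reporter of ER stress. All are on GRCm38.p6 from RefSeq, with the match in capitals. Canx is on the minus strand (chr11:50325750-50325868), Ero1b on the plus strand (chr13:12565633-12565750) with the match on the opposite strand, and Hspa5 on the plus strand (chr2:34771975-34772089).
Canx: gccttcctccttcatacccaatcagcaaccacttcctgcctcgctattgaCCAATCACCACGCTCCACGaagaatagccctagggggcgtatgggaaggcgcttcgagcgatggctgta
Ero1b: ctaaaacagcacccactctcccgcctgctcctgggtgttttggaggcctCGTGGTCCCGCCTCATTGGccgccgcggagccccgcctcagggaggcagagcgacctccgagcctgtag
Hspa5: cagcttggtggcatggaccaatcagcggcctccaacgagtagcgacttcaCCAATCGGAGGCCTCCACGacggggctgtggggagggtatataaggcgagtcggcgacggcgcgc

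No ER chaperone or unfolded protein response gene of 24 was higher without overlap, and 4 were lower without it, near the 12% of all genes. In the mean, 17 were lower, beside 46.3% of all genes, with a median of -0.10. Pdia4, a protein disulfide isomerase, read 517 and 455 in controls and 256 and 323 in R899X mice (-0.72 ± 0.26). Canx, calnexin, which holds glycoproteins until they fold, read 8565 and 8019.6 in controls and 6124 and 7372 in R899X mice (-0.30 ± 0.15). Ero1b, an oxidase that feeds disulfide bonds, read 946 and 908 in controls and 808 and 732 in R899X mice (-0.26 ± 0.18). Ddit3 (CHOP), the death-linked factor of prolonged ER stress, read 1169.5 and 1208 in controls and 891 and 969.6 in R899X mice (-0.35 ± 0.15), below both controls in both R899X mice. High-RVSP mice read 1299 and 1247 for Ddit3 and 224 and 361 for Pdia4.

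Hspa5 itself read 22732 and 14306 in controls and 13834 and 16126 in R899X mice (-0.27 ± 0.22), and here R899X mouse 2 exceeded control mouse 2. Xbp1, the factor spliced in this response, read 17566 and 12020.1 in controls and 12159 and 13622 in R899X mice (-0.17 ± 0.20). Hsp90b1, an ER form of HSP90, read 10476 and 11747 in controls and 7876 and 12184 in R899X mice (-0.18 ± 0.21). Each mouse's median deviation from the mean of the 4 was 0.11 and 0.10 in the controls and -0.20 and 0.02 in the R899X mice, so the low list value belonged to R899X mouse 1. Without that mouse the median difference was -0.01, and without R899X mouse 2 it was -0.27.

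Chaperones of the cytosol read lower in 12 of 18 genes (46.3% of all genes), 2 of them without overlap, with a median of -0.20. Hspb1 was described above. Hspd1, the mitochondrial HSP60, which this list also holds despite its name, read 4638 and 4976 in controls and 3296 and 4373 in R899X mice (-0.34 ± 0.17). Hspb8, a small heat shock protein, read 452 and 473 in controls and 536 and 555 in R899X mice (0.23 ± 0.19), the 1 member higher without overlap. Hsph1, an HSP110 cochaperone, read 3596 and 1836 in controls and 1229 and 1851 in R899X mice (-0.76 ± 0.31), highest in control mouse 1. Hspa8, the constitutive HSC70, read 33125 and 21034 in controls and 20842 and 22951 in R899X mice (-0.27 ± 0.22), again highest in control mouse 1. Without control mouse 1 the median of the list was 0.01, and without control mouse 2 it was -0.41. The lower value of this list thus rests on control mouse 1.

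**Figure D4:**
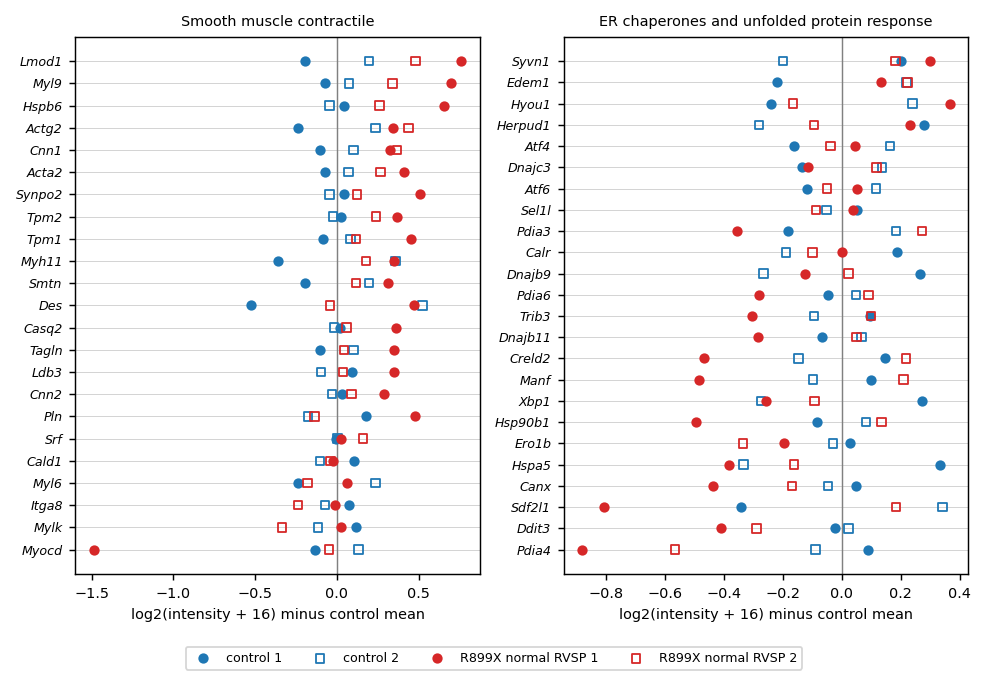
Deviation of log2(intensity + 16) from the mean of the 2 controls (horizontal axis) in each mouse for the contractile genes of smooth muscle (left) and the endoplasmic reticulum (ER) chaperones and unfolded protein response genes (right), ordered by difference. On the left 12 of 23 genes have both R899X mice to the right of both controls; on the right 4 of 24 have both to the left, and R899X mouse 1 lies farther left than R899X mouse 2 in most of the genes with negative differences.

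Interferon-stimulated genes read higher in 19 of 24 (53.7% of all genes), 6 of them without overlap (15% of all genes), with a median of 0.20. Many have an interferon-stimulated response element, whose core was searched on both strands as GAAA, any 2 bases and GAAA, and 11 of 25 promoters of the list held it against 978 (2.98%) of 32851. The stretches of Stat2 (chr10:128270248-128270335, plus strand) and Ifit3 (chr19:34583323-34583466, plus strand) are printed because they are the members without overlap that held it. They are from RefSeq on GRCm38.p6, and the capitals mark the core, here on the opposite strand.
Stat2: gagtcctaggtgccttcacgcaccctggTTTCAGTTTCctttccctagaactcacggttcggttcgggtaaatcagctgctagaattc
Ifit3: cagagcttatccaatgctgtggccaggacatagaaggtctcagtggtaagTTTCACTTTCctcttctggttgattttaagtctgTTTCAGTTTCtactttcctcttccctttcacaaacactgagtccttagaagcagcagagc

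Stat2, a transducer of interferon signals, read 337 and 231 in controls and 449.8 and 339 in R899X mice (0.46 ± 0.25), with R899X mouse 2 barely above control mouse 1. Its partner Irf9 read 994 and 958 in controls and 1191 and 1173 in R899X mice (0.27 ± 0.17). Irf7, which amplifies interferon production, read 363 and 287 in controls and 397 and 407 in R899X mice (0.30 ± 0.21). Usp18, which restrains interferon signalling, read 429 and 463 in controls and 623 and 574 in R899X mice (0.41 ± 0.18). Ifit3, an antiviral protein, read 1285 and 1338 in controls and 1428 and 1577 in R899X mice (0.19 ± 0.18). Psmb9, a subunit of the immunoproteasome, read 2172 and 1766 in controls and 2413 and 2872 in R899X mice (0.42 ± 0.19). All 6 were higher in both R899X mice, and the high-RVSP mice read 1280.4 and 1569 for Psmb9 and 270.2 and 279 for Irf7, below both controls. Gbp2, a guanylate-binding protein induced by interferon gamma, read 5571 and 2084 in controls and 3170.2 and 4887 in R899X mice (0.21 ± 0.42), so control mouse 2 was low and control mouse 1 the highest.

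Control mouse 2 was low over the whole list too. The median deviation of each mouse was 0.17 and -0.33 in the controls and 0.03 and 0.16 in the R899X mice, which sets control mouse 2 below the other 3. Without control mouse 2 the median difference was -0.08, and without control mouse 1 it was 0.45. MHC class II genes, expressed by antigen-presenting cells, were also lowest in control mouse 2: the deviations were 0.20 and -0.32 in the controls and -0.17 and 0.26 in the R899X mice, with 0 of 8 genes free of overlap. H2-Eb1 read 479 and 314 in controls and 429.8 and 618 in R899X mice (0.40 ± 0.27). H2-DMa read 2127 and 1256 in controls and 1676 and 2224 in R899X mice (0.24 ± 0.26). H2-Oa read 227 and 207 in controls and 227 and 275 in R899X mice (0.19 ± 0.23). T and NK cell markers were lowest in that mouse as well, with summed intensities of 12150.1 and 7952 in the controls and 9192 and 10756 in the R899X mice. The part of these cells in the interferon values was not tested.

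Immediate early genes, which respond within minutes to stress and handling, separated the mice rather than the groups. Deviations were -0.22 and 0.09 in the controls and -0.31 and 0.40 in the R899X mice. Fos read 5218 and 6615 in controls and 4732 and 10319 in R899X mice (0.25 ± 0.33). Egr1 read 5722 and 9786 in controls and 5882 and 12670.4 in R899X mice (0.21 ± 0.39). Both were highest in R899X mouse 2. Of 24 genes, 2 were higher and 4 lower without overlap, and the median of 0.13 became -0.10 with the beta-actin ratio as a term, 0.52 without R899X mouse 1 and -0.28 without R899X mouse 2. Gadd45b, a stress sensor, read 1205 and 1659.8 in controls and 1739 and 2181 in R899X mice (0.46 ± 0.20). Ccn1 (CYR61), a matrix protein induced by stretch, read 1774 and 2394 in controls and 2502 and 2979 in R899X mice (0.40 ± 0.22). Maff read 352 and 470.1 in controls and 306 and 324 in R899X mice (-0.35 ± 0.22). Fosl2 read 1629 and 1744 in controls and 1178 and 1577 in R899X mice (-0.30 ± 0.19). Myc read 186 and 192 in controls and 138 and 182 in R899X mice (-0.23 ± 0.24). Klf2, a flow-sensitive endothelial factor, read 4810.1 and 4745 in controls and 4402 and 4383 in R899X mice (-0.12 ± 0.15). The last 4 were below both controls in both R899X mice, Klf2 by the smallest step.

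Of 17 cytokines and chemokines, 2 were higher without overlap and 0 lower. Csf2 (GM-CSF), which alveolar macrophages need, read 53.4 and 108 in controls and 153 and 168 in R899X mice (0.92 ± 0.33). Il1b read 1203 and 1434 in controls and 1664 and 1550.3 in R899X mice (0.29 ± 0.21). Il6 had a wide spread, at 264 and 157 in controls and 17.5 and 648 in R899X mice (-0.56 ± 1.12), with R899X mouse 1 lowest and R899X mouse 2 highest.

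Retinoic acid genes gave 3 of 12 higher without overlap and 1 lower. Besides Cyp26b1, Rarb, a retinoic acid receptor that is itself a target of the ligand, read 265 and 229 in controls and 335 and 374 in R899X mice (0.49 ± 0.22). Rdh10, which makes retinaldehyde, read 929 and 831 in controls and 1108 and 971 in R899X mice (0.24 ± 0.17). Rarres2, chemerin, read 7218 and 6620.3 in controls and 6439 and 5134 in R899X mice (-0.27 ± 0.16). The enzyme that removes the ligand, the enzyme that makes its precursor and a receptor were thus all higher in both R899X mice, while the median of the list was 0.0016 (from -0.04 to 0.11 without each of the 4 mice in turn).

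In the ErbB list Nrg1 was higher and 2 receptors lower without overlap among 9 genes. Egfr read 895 and 843 in controls and 585 and 716 in R899X mice (-0.41 ± 0.18). Erbb3, a neuregulin receptor, read 1405 and 1394 in controls and 1170.2 and 1187 in R899X mice (-0.24 ± 0.15). Of 24 Wnt genes, 4 were higher and 4 lower without overlap, and all 8 are named, Fzd4 above. Lef1, the transcription factor that Wnt signals act through, read 333 and 423 in controls and 528 and 743 in R899X mice (0.71 ± 0.25). Rspo3, which amplifies Wnt signals, read 334 and 266 in controls and 368 and 395 in R899X mice (0.34 ± 0.34). Wnt7a read 202 and 241 in controls and 244 and 283 in R899X mice (0.23 ± 0.25). On the lower side was Tcf7l2, another factor of the Lef1 family, at 403 and 315 in controls and 258 and 302 in R899X mice (-0.34 ± 0.22). Lgr4, a receptor of R-spondins, read 351 and 379 in controls and 279.7 and 295 in R899X mice (-0.33 ± 0.21). The ligand Wnt5b was also lower, at 76.3 and 82.9 in controls and 61.4 and 74.5 in R899X mice (-0.19 ± 0.29). So was the receptor Fzd2, at 427 and 427 in controls and 418 and 419 in R899X mice (-0.03 ± 0.22). Of 16 Notch genes only the ligand Jag2 had no overlap, at 767 and 476 in controls and 384 and 385 in R899X mice (-0.63 ± 0.24). The ligand Jag1 overlapped, at 1424 and 1551 in controls and 1091 and 1448 in R899X mice (-0.24 ± 0.20).

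Of 23 oxidative phosphorylation genes 20 were higher (53.7% of all genes), 5 of them without overlap (15% of all genes), with a median of 0.15. Ndufa2, of complex I, read 4298 and 3925 in controls and 4765 and 5093 in R899X mice (0.26 ± 0.14). Ndufv1, of the same complex, read 2291 and 2349.7 in controls and 2936 and 2379.6 in R899X mice (0.19 ± 0.16). Ndufa9 read 2621 and 2616 in controls and 2940.0 and 2939 in R899X mice (0.17 ± 0.14). Atp5b, of ATP synthase, read 8839 and 8549 in controls and 10369.7 and 9861 in R899X mice (0.22 ± 0.14). Sdha, of complex II, read 3514 and 3209 in controls and 3928 and 3526 in R899X mice (0.15 ± 0.15). The high-RVSP mice read 3999 and 3688 for Ndufa2. Without R899X mouse 1 the median of the list was 0.04, and without control mouse 2 it was 0.08.

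Of 40 mitochondrial ribosomal proteins 30 were higher, 8 without overlap, and 2 were lower without it, with a median of 0.09 (from 0.04 to 0.12 without each of the 4 mice in turn). Mrpl17 read 626 and 899.1 in controls and 1097 and 1081 in R899X mice (0.53 ± 0.20). Mrps11 read 475 and 437 in controls and 541 and 609 in R899X mice (0.32 ± 0.18). Mrpl11 read 749 and 854 in controls and 963 and 931 in R899X mice (0.24 ± 0.17). Differences of Mrps21, Mrpl13 and Mrps28 were 0.16 ± 0.16, 0.16 ± 0.14 and 0.13 ± 0.16. The last 3 differences were about as large as their standard errors.

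Glycolysis and hypoxia genes were higher in 18 of 23, with 6 higher and 2 lower without overlap. Pdk1, a kinase that keeps pyruvate out of mitochondria, read 341 and 487 in controls and 549 and 686 in R899X mice (0.57 ± 0.23). Eno3, the muscle enolase, read 847 and 685 in controls and 1319 and 874 in R899X mice (0.49 ± 0.27). Pkm, pyruvate kinase, read 2331 and 2584 in controls and 3228 and 2642 in R899X mice (0.25 ± 0.16). Bnip3, a hypoxia target of mitophagy, read 2389.9 and 2572 in controls and 3156 and 2715 in R899X mice (0.24 ± 0.16). Pgam1 read 1802 and 1934 in controls and 2205 and 2019.7 in R899X mice (0.18 ± 0.15). Hif1a, the hypoxia factor itself, read 4767 and 4211 in controls and 3951 and 3902 in R899X mice (-0.19 ± 0.15), lower in both R899X mice.

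In cholesterol and fatty acid synthesis 4 of 19 were higher without overlap and 2 lower. Srebf2, the main activator of sterol genes, read 445 and 804 in controls and 807 and 844 in R899X mice (0.45 ± 0.26), with control mouse 2 near the R899X mice. Hmgcs1, an early enzyme of the pathway, read 4318 and 3802 in controls and 4904 and 4606 in R899X mice (0.23 ± 0.15). Cyp51 read 383 and 428 in controls and 447 and 505 in R899X mice (0.22 ± 0.18). Fdft1, squalene synthase, read 1166 and 987 in controls and 1243 and 1198 in R899X mice (0.18 ± 0.19). Sc5d, a late enzyme of cholesterol synthesis, was lower, at 1483 and 1381 in controls and 1209 and 1109.6 in R899X mice (-0.30 ± 0.18). Lpin1, a phosphatidate phosphatase, was lower too, at 1027 and 1046 in controls and 975 and 933 in R899X mice (-0.12 ± 0.18).

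Defence against xenobiotics and oxidants had 7 of 24 genes higher without overlap and 0 lower. Cyp1a1, the cytochrome induced by the aryl hydrocarbon receptor, read 835 and 819 in controls and 1695 and 1548 in R899X mice (0.96 ± 0.38), so both R899X mice were about 2-fold above both controls. The high-RVSP mice read 318 and 844. Ahr, that receptor, read 4018 and 4030.3 in controls and 4144 and 4405 in R899X mice (0.09 ± 0.14). Cyp1b1, another of its targets, overlapped at 206 and 188 in controls and 205 and 213 in R899X mice (0.08 ± 0.23). Gstm2, a glutathione transferase, read 3008 and 2864 in controls and 3946 and 4073 in R899X mice (0.45 ± 0.14). Its neighbour Gstm1 read 8131 and 7518 in controls and 10344 and 8875 in R899X mice (0.29 ± 0.15). Srxn1, sulfiredoxin, read 284 and 415 in controls and 426 and 431 in R899X mice (0.31 ± 0.23). Cyp2f2, of club cells, read 21350.0 and 20541 in controls and 25836 and 21394 in R899X mice (0.17 ± 0.16), nearly level between R899X mouse 2 and control mouse 1.

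Clock genes gave 2 of 15 lower without overlap and 0 higher. Tef, an output factor, read 4467 and 4322 in controls and 3969 and 3444 in R899X mice (-0.25 ± 0.15). Clock read 1408 and 1408 in controls and 1273 and 1406 in R899X mice (-0.07 ± 0.15). Hlf, a relative of Tef, had the widest difference, at 548 and 1266 in controls and 1038 and 1483 in R899X mice (0.56 ± 0.36), but control mouse 2 exceeded R899X mouse 1. Dbp, whose level swings over the day, read 5883 and 2337 in controls and 4484 and 3518 in R899X mice (0.10 ± 0.37), and it ordered the mice across the groups.

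Cell cycle genes pointed both ways: of 17, 4 were higher and 2 lower without overlap. Mki67, the marker of cycling cells, read 392 and 466 in controls and 268 and 375 in R899X mice (-0.41 ± 0.26). Rrm2, which makes deoxynucleotides, read 559.7 and 494 in controls and 352 and 456 in R899X mice (-0.38 ± 0.30). Mcm3, of the replicative helicase, read 455 and 565 in controls and 585 and 651 in R899X mice (0.28 ± 0.19). Mcm5, of the same helicase, read 764 and 658 in controls and 789 and 838 in R899X mice (0.19 ± 0.21). Pcna, the sliding clamp of DNA polymerase, read 4719.9 and 4652 in controls and 5297 and 5387 in R899X mice (0.19 ± 0.14). Ccnb2, cyclin B2, read 120.2 and 126 in controls and 146 and 159 in R899X mice (0.28 ± 0.31). Mki67 and Rrm2 were lower, and the replication genes and Ccnb2 higher, in both R899X mice than in both controls.

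Of 26 collagen and elastic matrix genes, 4 were higher without overlap and 0 lower. Col1a1, of fibrillar collagen I, read 517 and 532 in controls and 773 and 628 in R899X mice (0.40 ± 0.25). Col14a1, which binds fibrils, read 890.1 and 742 in controls and 979 and 1139.9 in R899X mice (0.37 ± 0.17). Fbln5, which organises elastic fibres, read 3499 and 4078 in controls and 4271 and 4117 in R899X mice (0.15 ± 0.15), with R899X mouse 2 close to control mouse 2. Of 14 metalloproteinases and inhibitors, 3 were higher and 2 lower without overlap. Timp1, an inhibitor, read 99.2 and 136 in controls and 163 and 172 in R899X mice (0.47 ± 0.27). Mmp9, a gelatinase, read 896 and 836 in controls and 1059 and 1119 in R899X mice (0.33 ± 0.18). Mmp12, the macrophage elastase, read 112 and 101 in controls and 143 and 138 in R899X mice (0.36 ± 0.25). Mmp19 was lower, at 142 and 117 in controls and 96.3 and 96.4 in R899X mice (-0.37 ± 0.25). Adamts9, which cleaves proteoglycans, was lower too, at 1392 and 1377 in controls and 1064 and 1224 in R899X mice (-0.28 ± 0.21).

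Lists of cell type markers were then described, airway first. Of 30 ciliated cell genes 28 were higher (53.7% of all genes) and 8 were so without overlap (15% of all genes), with a median of 0.26. Dnah11, a dynein heavy chain of the outer arm of cilia, read 104 and 130.4 in controls and 244 and 171 in R899X mice (0.74 ± 0.28). Dnah5, another, read 101 and 141 in controls and 193 and 209.8 in R899X mice (0.68 ± 0.28). Dynlrb2, a dynein light chain, read 749.9 and 1333 in controls and 1639 and 1579.6 in R899X mice (0.68 ± 0.27). Dnaic1, an intermediate chain, read 102 and 115 in controls and 143 and 129 in R899X mice (0.29 ± 0.25). Ccdc113, a ciliary protein, read 132 and 149 in controls and 158 and 219 in R899X mice (0.37 ± 0.27). Ccdc153 read 595 and 539.6 in controls and 718 and 711 in R899X mice (0.33 ± 0.20). Foxj1, the master factor of motile cilia, read 160.4 and 492 in controls and 618 and 390.3 in R899X mice (0.76 ± 0.46), with control mouse 1 far below the other 3 mice. That mouse set the list: deviations were -0.38 and 0.09 in the controls and 0.15 and 0.13 in the R899X mice, and without control mouse 1 the median was 0.05.

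Club and secretory genes were higher in 10 of 11, 4 without overlap, with a median of 0.17 (from 0.14 to 0.29 without each of the 4 mice in turn). Scgb3a2, a secretoglobin of bronchioles, read 17106 and 15198 in controls and 21603 and 19881 in R899X mice (0.36 ± 0.15). Its relative Scgb3a1 read 133 and 339 in controls and 513 and 417 in R899X mice (1.06 ± 0.59). Sult1d1, a sulfotransferase, read 176 and 345 in controls and 372 and 489 in R899X mice (0.75 ± 0.34). For Scgb3a1 and Sult1d1 control mouse 1 was well below the other 3. Muc5b, a mucin and the only tested goblet marker of 8 on the array, read 15.6 and 157 in controls and 147 and 189 in R899X mice (1.30 ± 0.83), with control mouse 1 far below the other 3.

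Alveolar lists had medians near 0. Of 18 alveolar type 2 genes 3 were higher and 1 lower without overlap, with a median of 0.04 (from -0.07 to 0.08 without each of the 4 mice in turn). Chil1, a chitinase-like protein, read 729 and 611 in controls and 1055 and 910.0 in R899X mice (0.54 ± 0.18). S100g, a calcium-binding protein, read 566 and 1098 in controls and 1160.1 and 1108 in R899X mice (0.51 ± 0.30). Abca3, the lipid pump of lamellar bodies, read 7004 and 5809 in controls and 5347 and 5280.2 in R899X mice (-0.26 ± 0.15). Napsa, a protease of surfactant protein processing, read 5734 and 6055 in controls and 6155 and 6149.8 in R899X mice (0.06 ± 0.14). Of 15 type 1 genes, Cldn18, a tight junction protein, read 7932 and 8780.3 in controls and 7597 and 7195 in R899X mice (-0.17 ± 0.15). Sema3a read 874 and 835 in controls and 944 and 951 in R899X mice (0.15 ± 0.16). Clic5, which overlapped, read 14251 and 8294 in controls and 10532 and 9690.1 in R899X mice (-0.11 ± 0.26). The median of the type 1 list was 0.01 (from -0.05 to 0.08 without each of the 4 mice in turn).

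Endothelial markers, 23 in all, had 4 higher and 2 lower without overlap, beside 15% and 12% of all genes, with a median of 0.07. That median was -0.03 without control mouse 1, 0.24 without control mouse 2, -0.04 without R899X mouse 1 and 0.20 without R899X mouse 2. Pecam1 (CD31) read 3293 and 4531 in controls and 5169 and 5466 in R899X mice (0.46 ± 0.18). Emcn, endomucin, read 1619.7 and 1628 in controls and 2794 and 1798 in R899X mice (0.46 ± 0.21). Esam, a junction protein, read 5996 and 6999 in controls and 8512 and 7521 in R899X mice (0.30 ± 0.16). Cldn5, the endothelial claudin, was lower, at 12162 and 11600.4 in controls and 9720.5 and 11140.1 in R899X mice (-0.19 ± 0.16). Flt1, a VEGF receptor, was lower too, at 3391 and 3320.5 in controls and 2930.4 and 2923 in R899X mice (-0.20 ± 0.15). Esam and Cldn5, both junction proteins of these cells, thus stood on opposite sides. In lymphatic endothelium only Mmrn1 of 5 had no overlap, at 542 and 520.4 in controls and 416 and 514 in R899X mice (-0.19 ± 0.19).

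Fibroblast genes gave 3 of 16 higher without overlap and 0 lower, with a median of -0.0029 (from -0.03 to 0.13 without each of the 4 mice in turn, and 0.06 after median centring). Dcn, decorin, a proteoglycan on collagen fibrils, read 2856 and 2789.8 in controls and 4136 and 3824 in R899X mice (0.49 ± 0.14), the pair of groups well apart. Lum, its relative lumican, read 294 and 339.9 in controls and 376 and 449 in R899X mice (0.36 ± 0.21). Of 9 mesothelial genes, 4 were higher and 5 lower in the mean, with a median of -0.03, and 2 were higher and 0 lower without overlap. In this list Krt19, a keratin, was higher without overlap, at 2477 and 2485 in controls and 3006 and 3414 in R899X mice (0.37 ± 0.17). So was Wt1, a transcription factor of mesothelium, at 81.8 and 69.7 in controls and 109 and 92.2 in R899X mice (0.34 ± 0.28). Cytl1, a secreted protein of cartilage, was the 1 of 3 cartilage genes without overlap, at 1208 and 513 in controls and 1609.8 and 1456 in R899X mice (0.94 ± 0.51).

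Nerve and glia genes were higher without overlap in 4 of 7. Stmn2, of neurons, read 1554 and 2396 in controls and 2596 and 2457 in R899X mice (0.39 ± 0.21). Mal, a myelin gene, read 296 and 328 in controls and 414 and 453 in R899X mice (0.46 ± 0.26). Mbp, myelin basic protein, read 968 and 1016 in controls and 1220.3 and 1145 in R899X mice (0.25 ± 0.16). Sox10, of Schwann cells, read 163 and 112 in controls and 167 and 164 in R899X mice (0.26 ± 0.28). R899X mouse 2 was only just above control mouse 1 for Sox10. Of 2 neuroendocrine genes tested, Syp was lower without overlap, at 134 and 159 in controls and 132 and 111 in R899X mice (-0.24 ± 0.27).

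Of 17 macrophage genes 3 were higher and 1 lower without overlap. Mrc1, the mannose receptor, read 1457 and 1241 in controls and 1789 and 1479 in R899X mice (0.27 ± 0.20). Ctsk, cathepsin K, read 385 and 470.1 in controls and 625 and 539 in R899X mice (0.43 ± 0.26). Krt79 read 562 and 558 in controls and 645 and 650.1 in R899X mice (0.20 ± 0.27). Chil3 (Ym1), a lectin of alternatively activated macrophages, read 12821 and 8997 in controls and 6926 and 8100.4 in R899X mice (-0.52 ± 0.38). Of 7 dendritic genes, 4 were higher and 3 lower in the mean, and 2 were higher and 0 lower without overlap. The median of this list was 0.09. Siglech, of plasmacytoid cells, read 109.7 and 42.2 in controls and 128 and 112 in R899X mice (0.67 ± 0.40). Ccr7, a homing receptor, read 464 and 544 in controls and 551 and 601 in R899X mice (0.19 ± 0.21). Cd209a read 345 and 332 in controls and 197 and 334 in R899X mice (-0.38 ± 0.27). Itgae read 687 and 349 in controls and 273 and 538 in R899X mice (-0.34 ± 0.38). Cd209a and Itgae overlapped.

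Neutrophil genes split. Ltf, lactoferrin of secondary granules, read 230.1 and 242 in controls and 118 and 168 in R899X mice (-0.68 ± 0.28). Camp, a peptide of the same granules, read 122 and 194 in controls and 111 and 122 in R899X mice (-0.36 ± 0.37). Csf3r, the G-CSF receptor, read 1668 and 1674 in controls and 1511 and 1587 in R899X mice (-0.11 ± 0.18). These 3 were lower and Mmp9 was higher, all without overlap. The bright markers S100a8 (0.14 ± 0.19) and S100a9 (0.13 ± 0.22) overlapped. Cpa3, a mast cell protease, was lower, at 140.2 and 100.2 in controls and 35.2 and 97.3 in R899X mice (-0.82 ± 0.41). Ms4a2, a chain of the IgE receptor, was lower too, at 219.6 and 133 in controls and 102 and 107 in R899X mice (-0.64 ± 0.29). Kit, which other lung cells also express, was higher, at 2163 and 2651 in controls and 2968 and 2896 in R899X mice (0.29 ± 0.19). With 4 tested of 9 on the array, the mast cell list is thin.

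Of 16 T and NK cell genes 2 were higher and 1 lower without overlap, and of 13 B and plasma cell genes 1 was higher and 2 lower, beside 15% and 12% of all genes. Cd8b1, a chain of the CD8 coreceptor of cytotoxic T cells, read 104 and 151 in controls and 236 and 172 in R899X mice (0.62 ± 0.28). Thy1, a T cell surface protein that fibroblasts also express, read 359.7 and 419 in controls and 438 and 434 in R899X mice (0.16 ± 0.19). Tbx21, of type 1 helper and NK cells, read 282 and 228 in controls and 213 and 194 in R899X mice (-0.30 ± 0.23). Pax5, of B cells, read 81.8 and 68.8 in controls and 120.4 and 84.9 in R899X mice (0.37 ± 0.32). Jchain, of plasma cells, read 1870.1 and 1807 in controls and 1474 and 1594 in R899X mice (-0.26 ± 0.22). Fcmr, the IgM receptor, read 640.0 and 522 in controls and 479 and 493 in R899X mice (-0.24 ± 0.18). Cd8b1, Thy1 and Pax5 were higher, and Tbx21, Jchain and Fcmr lower, in both R899X mice than in both controls.

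Platelet and megakaryocyte genes were higher in 10 of 11 (53.7% of all genes), 4 of them without overlap (15% of all genes), with a median of 0.21. Pf4, platelet factor 4, read 968 and 1082 in controls and 1256 and 1127 in R899X mice (0.21 ± 0.19). Itga2b, an integrin chain of platelets, read 365 and 406 in controls and 499.6 and 475 in R899X mice (0.33 ± 0.18). Gp9, of the von Willebrand factor receptor, read 142 and 125 in controls and 177 and 173 in R899X mice (0.36 ± 0.26). F13a1, a clotting factor that macrophages also express, read 477 and 522 in controls and 778 and 662 in R899X mice (0.51 ± 0.19). Without control mouse 1 the median was 0.06, and it was 0.09 in the fit with the beta-actin ratio. Red cell genes overlapped in all 4 tested. Slc4a1, their anion exchanger, read 148 and 504 in controls and 171 and 179 in R899X mice (-0.61 ± 0.69). Hbb-b2 read 552 and 654 in controls and 961 and 469 in R899X mice (0.16 ± 0.69). Bpgm read 1118 and 1742 in controls and 2136 and 1117 in R899X mice (0.15 ± 0.49).

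Striated muscle genes were led by Mb, myoglobin, at 636 and 662 in controls and 1158 and 1027 in R899X mice (0.73 ± 0.20). Ckm, muscle creatine kinase, read 299.8 and 326 in controls and 549.6 and 437 in R899X mice (0.62 ± 0.29). Both R899X mice were far above both controls for Mb, and the high-RVSP mice read 440.1 and 317, below them. Of 8 skeletal muscle genes tested 7 were higher and 3 without overlap, Mb, Ckm and Eno3. Acta1, skeletal actin, read 102 and 120.2 in controls and 110.2 and 97.0 in R899X mice (-0.08 ± 0.26) with overlap. Hrc, a calcium-binding protein of the cardiac list, read 279 and 252 in controls and 339 and 290.1 in R899X mice (0.23 ± 0.22). Ttn, titin, read 1637 and 1807 in controls and 1879.7 and 1828 in R899X mice (0.11 ± 0.33). Myh6, a myosin heavy chain of heart muscle, overlapped at 7299.9 and 5718 in controls and 7744 and 5502 in R899X mice (0.01 ± 0.39). Actc1, cardiac actin, did so at 7551 and 6379.9 in controls and 9554 and 6916 in R899X mice (0.23 ± 0.24). Myh6 and Actc1 thus overlapped while Mb and Ckm did not.

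Adipocyte genes were higher in 11 of 12, with 2 free of overlap, Cidec and Lpl. Cidec, of lipid droplets, read 51.2 and 71.9 in controls and 90.8 and 113 in R899X mice (0.61 ± 0.30). Lpl, lipoprotein lipase, read 5169.9 and 5234 in controls and 5971 and 5421 in R899X mice (0.13 ± 0.14). The widest differences came from R899X mouse 2. Adipoq, adiponectin, read 19.6 and 54.4 in controls and 46.3 and 303 in R899X mice (1.49 ± 0.72). Fabp4, the adipocyte fatty acid-binding protein, read 286 and 639.6 in controls and 564 and 1194 in R899X mice (0.91 ± 0.45). Car3 read 244 and 752 in controls and 224 and 2773 in R899X mice (0.87 ± 0.98), all with overlap. Liver genes were high in 1 mouse: Alb, albumin, read 139 and 2464 in controls and 113 and 297 in R899X mice (-1.62 ± 1.24). Ttr, transthyretin, read 55.8 and 996 in controls and 68.0 and 144 in R899X mice (-1.22 ± 1.38). Apoa2 read 83.6 and 889 in controls and 82.9 and 153 in R899X mice (-1.22 ± 0.96), with control mouse 2 far above the rest. Of 5 thyroid and parathyroid genes on the array 0 passed the filter on dim probe sets.

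**Figure D5:**
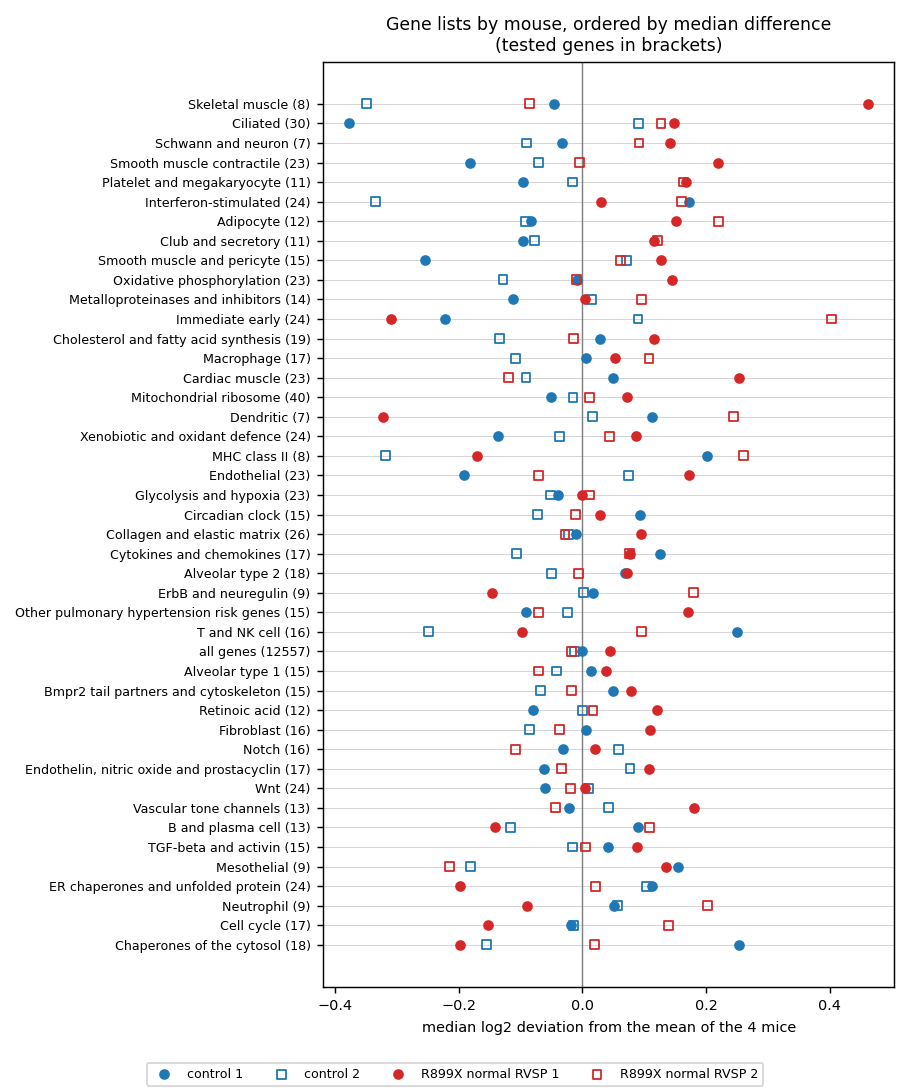
Median deviation of each gene list from the mean of the 4 mice (horizontal axis, log2 scale), 1 point a mouse, for lists with at least 7 tested genes outside the BMP system, ordered by the median difference of R899X minus control. In ciliated cell genes control mouse 1 (-0.38) and in interferon-stimulated genes control mouse 2 (-0.33) lie apart from the other 3.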

How the data were processed

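Whole-lung RNA of each mouse was hybridised to 1 Affymetrix Mouse 430 2.0 array. The values deposited by the authors are intensities on a linear scale for 45101 probe sets. The algorithm that made them was not given in the sources used here. Their trimmed mean, without the top and bottom 2% of values, was 500.0 on each array. Array medians of log2 values spread by 0.126, under the limit of 0.2 set for further normalization, so none was applied. The number of arrays limits the precision.

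Values were used as log2(value + 16). The 64 control probe sets and the lower 40% by mean over the 6 arrays (18015) were left out, and 27022 were tested. All 6 arrays were fitted in limma 3.58.1 (R 4.3.3) with 1 mean a group and eBayes with an intensity trend (3 residual and 5.06 prior degrees of freedom), two-sided, with Benjamini-Hochberg adjustment. The procedure was tested on simulated data. The 2 high-RVSP arrays entered the contrast only through the spread, and also took part in the filter.

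Symbols came from the platform annotation, in which 34945 probe sets had 1 symbol, 932 had several and 9160 were unlisted. Of those with 1 symbol, 34741 matched the RefSeq table of GRCm38.p6, and 0 symbols changed. Each gene of a list was read by its brightest tested probe set.

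Genes were named by a rule with 4 parts. The first took the 15 largest differences in each direction among probe sets without overlap at an unadjusted p under 0.01. The second took, in each direction, the 10 genes whose probe sets all pointed one way without overlap, ranked by their smallest difference. The third took Bmpr2, Tagln, sex-linked genes and the BMP lists. The last took up to 6 non-overlapping members of each other list, or the up to 3 with the largest differences where fewer than 3 did not overlap. Members, lists and rule were chosen with earlier results of these data known. Genes outside the rule were chosen after their values were seen: Sftpc, Ager, Scgb1a1, Myl7, Fos, Egr1, Hspa5, Xbp1, Hsp90b1, Hsph1, Hspa8, Gbp2, Dbp, Cyp1b1, Edn1, Foxj1, Myh11, Myocd, Cav1, Kcnk3, Acta1, Myh6, Actc1, Il1b, Ccr7, S100a8, S100a9, Tef, Clock, Cidec, Lpl, Cfl2, Wnt5b, Fzd2, Ahr, Synpo2, Tpm1, Tpm2, Casq2, Cnn2 and Srf.

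Alternatives covered the offset, the normalization, the filter on dim probe sets, the arrays in the fit, the moderation, the beta-actin ratio as a covariate and the probe set used for a gene.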

Additional observations from a re-analysis of the deposited data

How the results depend on the processing

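The count of probe sets past the adjusted threshold was 0 under every offset, normalization, filter and model tried. Leaving out each array in turn gave 0 to 4, with 2 without control mouse 2 and 4 without R899X mouse 2. These fits leave 1 array in a group, which is assumed to vary like the others. At an unadjusted p under 0.05 there were 1174 probe sets, 795 with only the 4 arrays, 1289 without the intensity trend and 1634 with the beta-actin ratio in the model. The 35 probe sets past 2-fold higher without overlap became 63 with an offset of 1, 10 with an offset of 64, 57 after quantile normalization, 60 after median centring, 305 without a filter and 13 with the lower 60% left out. The 120 lower ones became 184, 36, 104, 93, 737 and 47 in the same order. Leaving out 1 array gave 35 to 448 higher (130 without control mouse 1, 448 without control mouse 2, 248 without R899X mouse 1 and 101 without R899X mouse 2). It gave 120 to 775 lower (179, 450, 187 and 775 in that order). A group of 1 mouse overlaps less often by construction.

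The median of 55 gene lists differed in sign from the reported value in 0 with either offset, in 4 after quantile normalization, in 10 after median centring, in 9 with the beta-actin covariate and in 8 with the mean of a gene's probe sets. Without control mouse 1 it did so in 14, without control mouse 2 in 18, without R899X mouse 1 in 14 and without R899X mouse 2 in 12. No paired analysis was possible because the labels carry a number for each mouse but nothing that links a control to an R899X mouse. The 2-fold counts were several times larger when dim probe sets were kept, which also raised the number tested from 27022 to 45037. The part of signal near background in these counts was not tested.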
